A study of Mus musculus with 12 samples.

Results

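The 10 genes of the interleukin-1 (IL-1) family and the inflammasome followed here in mouse aortic tissue were chosen by their gene name, out of 34797 gene names on the array. They were the ligands Il1a, Il1b, Il18 and Il33, the receptors Il1r1, Il1r2, Il1rap and Il1rl1, and the inflammasome genes Nlrp3 and Casp1. The array carried 15 probes for the 10 genes. RNA from whole aorta was hybridised to 12 one-colour Agilent arrays, 3 in each of 4 groups. All animals were male mice of mixed 129S5/SvEvBrd, C57BL6 and SJL background that carried floxed Socs3 alleles. Mice with the SM22-Cre transgene, whose promoter is active in smooth muscle cells (SMCs), were labelled smSocs3-KO, and littermates without it were labelled WT. Each genotype was sampled before challenge and at day 3 of BAPN + AngII challenge, a model of aortic dissection in which AngII (angiotensin II, 1000 ng/kg/min) was given together with BAPN (beta-aminopropionitrile, 150 mg/kg/day) by osmotic minipump. BAPN blocks the cross-linking of collagen and elastin, and AngII raises vascular tone and drives inflammation of the vessel wall. The labels gave no age, and nothing said how many animals lay behind an array, so that p-values measure the spread between these samples only.

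IL-1 family cytokines are secreted mediators that start inflammation. IL-1 beta and IL-18 are made as inactive precursors and are cut by caspase-1 inside the inflammasome, a complex that the sensor NLRP3 assembles in response to infection or tissue damage, whereas IL-33 and IL-1 alpha are released from damaged cells and act without that step. The signalling receptors encoded by Il1r1 and Il1rl1 pair with the accessory protein encoded by Il1rap. The receptor encoded by Il1r2 binds IL-1 without signalling and acts as a decoy. In the vessel wall, IL-33 is known mainly from endothelial and stromal cells, and IL-1 beta from infiltrating myeloid cells.

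The sequences upstream of the transcription starts of Il33 and Il1r2 are shown because these were the members that passed a test. They are the 250 bases before each start from RefSeq (GRCm38.p6), 5′ to 3′ on the strand of the gene, and all 10 members matched that table by symbol, with 14 starts in all. Il33 has 2 annotated starts, at chr19:29924863-29925112 and chr19:29945540-29945789, and the Il1r2 window is chr1:40085843-40086092, all on the plus strand. Capitals mark matches to 5 motifs searched on both strands, namely the STAT-type TTCNNNGAA, the AP-1-type TGANTCA, the NF-kB consensus, the C/EBP-type TTGCNNAA and the TATA box TATAAA.
Il33, upstream start: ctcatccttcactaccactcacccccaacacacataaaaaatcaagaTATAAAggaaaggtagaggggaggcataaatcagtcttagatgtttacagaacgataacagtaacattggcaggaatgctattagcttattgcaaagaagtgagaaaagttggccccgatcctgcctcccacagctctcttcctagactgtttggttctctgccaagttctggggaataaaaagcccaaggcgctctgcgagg
Il33, downstream start: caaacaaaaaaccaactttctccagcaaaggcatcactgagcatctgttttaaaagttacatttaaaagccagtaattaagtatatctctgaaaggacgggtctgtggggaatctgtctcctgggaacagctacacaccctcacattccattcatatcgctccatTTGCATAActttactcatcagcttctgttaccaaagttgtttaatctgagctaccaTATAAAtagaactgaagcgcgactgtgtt
Il1r2: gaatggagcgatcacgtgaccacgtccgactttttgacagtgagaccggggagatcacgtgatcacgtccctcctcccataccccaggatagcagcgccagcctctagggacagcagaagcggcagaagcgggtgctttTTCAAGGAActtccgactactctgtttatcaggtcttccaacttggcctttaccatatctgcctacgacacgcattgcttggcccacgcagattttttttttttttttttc
The downstream Il33 window held a TATA box beginning 29 bases before the start and a C/EBP-type match beginning 85 bases before it, and the upstream window held only a TATA box letter match, beginning 203 bases before the start. The Il1r2 window held a STAT-type match that began 111 bases before the start. Among 32841 mouse promoter windows of the same length, 7.02% held the STAT-type letters, 6.75% the AP-1-type, 7.25% the NF-kB consensus, 9.57% the C/EBP-type and 12.4% a TATA box. These matches describe letters in the windows and not binding.

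Il1rap and Il1rl1 each had 3 probes, and the first 30 bases of each probe of 60 are given because the probes were designed on different transcripts. For Il1rl1 the probes were designed on the RefSeq transcripts of the membrane-bound receptor (NM_001025602, 2 probes) and of the soluble form (NM_010743).
Il1rl1, NM_001025602, probe that stood for the gene: gccattgactccttgtgtgttttcttcatg
Il1rl1, NM_001025602, further probe: ccttacccaaattgccattacagtcgagca
Il1rl1, NM_010743: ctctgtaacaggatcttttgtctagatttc
Il1rap, NM_134103, probe that stood for the gene: gatgttgtcaacgcctttgtttctaaatgt
Il1rap, ENSMUST00000096129: ccattttctttaaccagctcttccttgatc
Il1rap, NM_008364: catacatctttcagtagtcattggcaaaat
A gene was represented by its brightest probe among those that exceeded background clearly in every array of some group (well above background, the scanner software's call). By that rule 9 of the 10 members could be tested, and Il1a could not. Levels are given as log2 signal relative to the 75th percentile of the array, so that 0 marks a gene at that percentile, and levels of different genes were not compared.

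Some arrays stood apart and touched several of the results. Signals of Socs3 itself were no lower in mice labelled smSocs3-KO. Its arrays read 0.15, 0.17 and 0.58 in WT before challenge, 2.01, 2.13 and 0.47 in WT at day 3, 0.10, 0.97 and 1.29 in smSocs3-KO before challenge, and 3.11, 2.09 and 3.93 in smSocs3-KO at day 3 (day 3 difference between genotypes 1.5, SE 0.53, adjusted p = 0.201, limma). The arrays are therefore named by their labels, and genotype comparisons compare labels. WT day 3 replicate 4 lay near the arrays before challenge for Socs3, Il33, Il1b and Il1r2. Because readings of genes followed here set it apart, values without this array are given as a description and are not counted as support. Slide 1 held all 6 WT arrays and smSocs3-KO before replicate 1, and slide 2 held the other 5 smSocs3-KO arrays. At day 3 genotype and slide therefore cannot be told apart except through a fit that takes the slide as a block. That fit estimates the slide effect only from smSocs3-KO before challenge, where replicate 1 alone lay on slide 1. The share of spots well above background was between 55.4% and 61.2% on every array.

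Of the 9 members tested, Il33 was higher at day 3 than before challenge in smSocs3-KO aortas, and it was also higher in smSocs3-KO than in WT aortas at day 3. Il1r2 also passed the test in the smSocs3-KO response, but it entered the test only through smSocs3-KO at day 3, the group where it was high, so its call is not counted as support. No member passed the test (limma, Benjamini-Hochberg adjusted p under 0.05 over 22769 genes) for the WT response, for the genotypes before challenge or for the difference between the responses. No member was called lower in any comparison. The background share of genes called in either direction was 4.63% in the WT response, 2.35% in the smSocs3-KO response, 0.0264% between genotypes before challenge, 1.07% between genotypes at day 3 and 0% for the difference between the responses. At an unadjusted p under 0.05, the same fit had 0 members in the WT response (26.6% of all genes), 3 in the smSocs3-KO response (Il33, Il1r1 and Il1r2, 24.2% of all genes), 2 before challenge (Il18 and Il1rl1, 4.38%), 4 between genotypes at day 3 (Il18, Il33, Il1r2 and Il1rl1, 16.5%) and 1 for the difference between the responses (Il33, 5.51%). The study's threshold, p under 0.01 with a fold change above 4 or below 0.25, called Il33 and Il1r2 in the smSocs3-KO response (1.57% of all genes). It called Il33 between genotypes at day 3 (1.08%) and no member elsewhere (1.24% in the WT response, 0.237% before challenge and 0.303% for the difference between the responses). In these counts and in the unadjusted ones, Il1r2 is again not counted as support. The median log2 difference of the 9 members was 0.29 in the WT response against -0.04 over all genes, 0.28 against -0.10 in the smSocs3-KO response, 0.34 against 0.00 before challenge, and 0.80 against -0.10 between genotypes at day 3. The comparisons share arrays, so their values are set side by side and are not independent. In whole tissue, fewer cells of a type and less RNA per cell cannot be told apart.

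**Figure D1:**
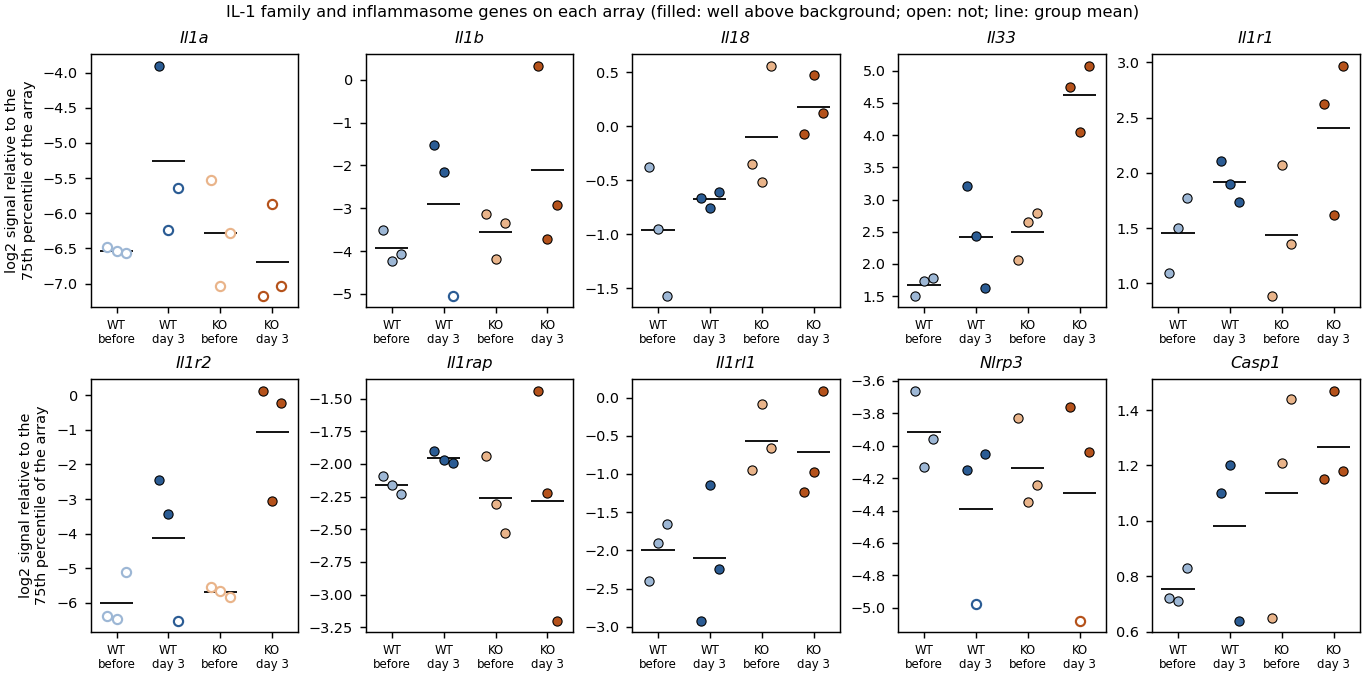
Log2 signal, set against each array's 75th percentile (vertical axis), for the 10 genes in the 4 groups of 3 arrays. Each point is an array, filled where the probe was well above background, and the line is the group mean. Il33 lay at 4.05 or more on the 3 smSocs3-KO day 3 arrays and at 3.21 or less on all others.

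Il33, the alarmin, was the only ligand that passed a test. WT arrays before challenge read 1.51, 1.73 and 1.78, and those at day 3 read 3.21, 2.43 and 1.62. smSocs3-KO arrays read 2.06, 2.65 and 2.79 before challenge and 4.74, 4.05 and 5.08 at day 3. All 3 smSocs3-KO day 3 arrays exceeded the other 9, a separation upward from their own group before challenge that 12.8% of all genes showed, whereas WT day 3 overlapped WT before challenge through replicate 4. The group means were 1.67 ± 0.14 and 2.42 ± 0.79 in WT and 2.5 ± 0.39 and 4.63 ± 0.52 in smSocs3-KO (SD, n = 3). The response in smSocs3-KO was 2.12 on the log2 scale (SE 0.38, 95% interval 1.28 to 2.97, 4.36-fold, adjusted p = 0.0267), and that in WT was 0.75 (SE 0.38, interval -0.10 to 1.59, adjusted p = 0.239). The difference between the responses was 1.38 (SE 0.54, unadjusted p = 0.0279, adjusted p = 0.892), so it did not pass over all genes. At day 3, smSocs3-KO exceeded WT by 2.21 (SE 0.38, interval 1.36 to 3.05, 4.61-fold, adjusted p = 0.0276). Before challenge the genotypes did not overlap, with a difference of 0.83 (SE 0.38, adjusted p = 0.9999), where 6.42% of all genes were higher without overlap.

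The Il33 calls depended on single arrays and were lost with the slide as a block. That fit called 0.22% of all genes in the smSocs3-KO response and 0% between genotypes at day 3. Losing a call in it was therefore not particular to Il33. With the slide as a block, the smSocs3-KO response was 1.91 (adjusted p = 0.0974), the day 3 difference 1.55 (SE 0.67, adjusted p = 0.302) and the difference before challenge 0.39 (adjusted p = 0.849). The smSocs3-KO response within slide 2 was also 1.91 (adjusted p = 0.0811). The block fit, the slide 2 fit and the omission of smSocs3-KO before replicate 1 estimate this response from the same arrays and are not separate checks. The response call was lost without smSocs3-KO before replicate 1 or 3, smSocs3-KO day 3 replicate 2 or 5, or WT before replicate 2, with values from 1.90 to 2.41 over all 12 omissions and adjusted p from 0.0519 to 0.106 where it was lost. The day 3 call was lost without smSocs3-KO day 3 replicate 2 or 5, WT day 3 replicate 3, or WT before replicate 1 or 2, with values from 1.81 to 2.60 and adjusted p from 0.0516 to 0.114 where it was lost. Without WT day 3 replicate 4 the WT response of Il33 was 1.15 (SE 0.34, adjusted p = 0.0489) and passed, in a fit where 16.1% of all genes did. That array was set apart partly by its low Il33, so this pass is not counted as support.

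Il1b, the main secreted IL-1, varied more between arrays of a group than between groups. It read -3.50, -4.23 and -4.07 in WT before challenge, and -1.53, -2.16 and -5.04 in WT at day 3, the last not well above background. In smSocs3-KO it read -3.14, -4.19 and -3.35 before challenge and 0.33, -3.71 and -2.93 at day 3. Single arrays, WT day 3 replicates 1 and 3 and smSocs3-KO day 3 replicate 2, were high, and the groups overlapped in every comparison. The response was 1.02 in WT (SE 1.04, interval -1.27 to 3.31, adjusted p = 0.551) and 1.46 in smSocs3-KO (SE 1.04, interval -0.83 to 3.74, adjusted p = 0.395). Without smSocs3-KO day 3 replicate 2 the smSocs3-KO response was 0.24, and without WT day 3 replicate 4 the WT response was 2.09 (adjusted p = 0.166). The day 3 difference between genotypes, 0.80 (adjusted p = 0.743), changed sign to -0.41 and -0.26 without the same respective arrays.

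Il18, the other ligand that caspase-1 matures, had no difference that passed. WT arrays read -0.38, -0.95 and -1.57 before challenge and -0.67, -0.76 and -0.61 at day 3, against -0.35, -0.52 and 0.56 and then -0.07, 0.47 and 0.12 in smSocs3-KO. At day 3 all smSocs3-KO arrays exceeded all WT arrays, as 7.33% of all genes did, with a difference of 0.85 (SE 0.33, adjusted p = 0.238) that did not pass. Before challenge the groups overlapped and the difference was 0.86 (SE 0.33, unadjusted p = 0.0251, adjusted p = 0.9999). With the slide as a block these differences were 0.48 (adjusted p = 0.700) and 0.61 (adjusted p = 0.699), and on slide 1 the only smSocs3-KO array read -0.35, next to the highest WT array at -0.38. The responses were 0.29 in WT and 0.28 in smSocs3-KO (SE 0.33 for each, adjusted p = 0.602 and 0.612). Il1a was well above background on 1 array only, WT day 3 replicate 1, at -3.90, and no fold was taken for it.

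Among the receptors, Il1r2, the decoy receptor, was well above background only at day 3. It was not well above background on any array before challenge, at -6.39, -6.47 and -5.10 in WT and -5.54, -5.64 and -5.83 in smSocs3-KO. At day 3 it read -2.46 and -3.44 in WT, with replicate 4 at -6.51 and not well above background, and 0.13, -3.06 and -0.24 in smSocs3-KO, where all 3 arrays were well above it. Because the group before challenge was below background, smSocs3-KO at day 3 was at least 12.1-fold higher (mean -1.06 against a measured mean of -5.67), and the difference fitted to the measured signals was 4.61 (SE 1.01, adjusted p = 0.0442). This value depended on how background was handled. With normexp background correction the fitted difference was 1.89 with quantile normalization (adjusted p = 0.0428) and 1.73 with the 75th percentile (adjusted p = 0.0613), both under the bound. In WT the corresponding bound was at least 1.46-fold, from 2 of 3 arrays well above background, and the fitted difference was 1.85 (SE 1.01, adjusted p = 0.263). Without WT day 3 replicate 4, the WT difference was 3.04 (SE 0.83, adjusted p = 0.0345), in a fit where 16.1% of all genes passed. That array was set apart partly by its low Il1r2, so this value is not counted as support. The genotypes overlapped at day 3 and differed by 3.08 (SE 1.01, interval 0.85 to 5.31, adjusted p = 0.179), and the responses differed by 2.76 (SE 1.43, adjusted p = 0.931).

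The smSocs3-KO call for Il1r2 was the less stable of the pair. In the fit with slides as blocks it was 4.67 (adjusted p = 0.130), and within slide 2, from the same arrays, it was also 4.67 (adjusted p = 0.0995). The call was kept in only 3 of 12 omissions of an array, those of WT day 3 replicate 1, WT day 3 replicate 4 and smSocs3-KO day 3 replicate 3, with values from 4.02 to 5.62 and adjusted p from 0.0569 to 0.141 where it was lost. The omissions that lost it were those of all 3 arrays of WT before challenge, all 3 of smSocs3-KO before challenge, WT day 3 replicate 3 and smSocs3-KO day 3 replicates 2 and 5.

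**Figure D2:**
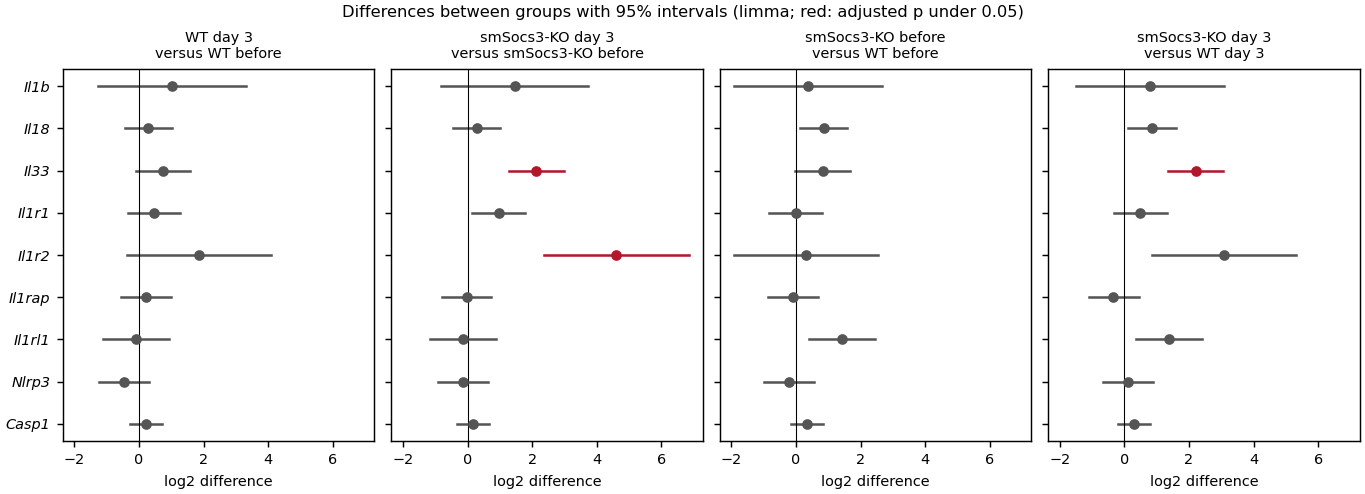
Log2 difference with its 95% interval (horizontal axis) for the 9 members tested (vertical axis) in 4 comparisons, red where the adjusted p was under 0.05. Il33 is red in the smSocs3-KO response (2.12) and between genotypes at day 3 (2.21), Il1r2 in the smSocs3-KO response (4.61), and no other member is.

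Il1rl1, which encodes the IL-33 receptor ST2, differed most between labels before challenge. The probe that stood for the gene read -2.40, -1.91 and -1.66 in WT and -0.95, -0.09 and -0.66 in smSocs3-KO before challenge. The groups did not overlap, a separation upward that 6.42% of all genes showed. The difference was 1.42 (SE 0.46, interval 0.40 to 2.45, unadjusted p = 0.0110, adjusted p = 0.931) and did not pass over all genes. At day 3 the arrays read -2.92, -1.14 and -2.24 in WT and -1.24, -0.98 and 0.09 in smSocs3-KO, which overlapped, with a difference of 1.39 (SE 0.46, adjusted p = 0.184). The challenge moved it by -0.11 in WT and by -0.14 in smSocs3-KO (SE 0.46 for each). In the fit with slides as blocks it differed by 1.04 before challenge (adjusted p = 0.638) and by 0.82 at day 3 (adjusted p = 0.634). The probe for the soluble form was well above background only on smSocs3-KO day 3 replicate 5, at -4.22. The further NM_001025602 probe was so only on that array, at -4.75, and on smSocs3-KO before replicate 3, at -4.87.

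Il1r1, the signalling IL-1 receptor, was well above background on every array. It read 1.09, 1.5 and 1.77 in WT before challenge, 2.11, 1.90 and 1.74 in WT at day 3, 0.89, 2.07 and 1.36 in smSocs3-KO before challenge and 2.62, 1.62 and 2.97 in smSocs3-KO at day 3. The groups overlapped in every comparison. The responses were 0.46 in WT (SE 0.37, adjusted p = 0.442) and 0.96 in smSocs3-KO (SE 0.37, unadjusted p = 0.0254, adjusted p = 0.155).

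Of the 3 Il1rap probes, 2 could be tested, and none of their differences passed. The NM_134103 probe stayed between -3.20 and -1.44 on all 12 arrays, with responses of 0.21 in WT and -0.03 in smSocs3-KO (SE 0.35 for each). It was the only member whose WT day 3 arrays (-1.90, -1.97 and -1.99) all exceeded those before challenge (-2.09, -2.16 and -2.23), as 19.9% of all genes did. The ENSMUST00000096129 probe had lower values at day 3, with differences of -0.76 in WT and -1.19 in smSocs3-KO (SE 0.59 for each, adjusted p = 0.431 and 0.244), and was not well above background on WT day 3 replicate 4 and smSocs3-KO day 3 replicate 2. The NM_008364 probe, designed on the full-length receptor, was not well above background on any of the 12 arrays.

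**Figure D3:**
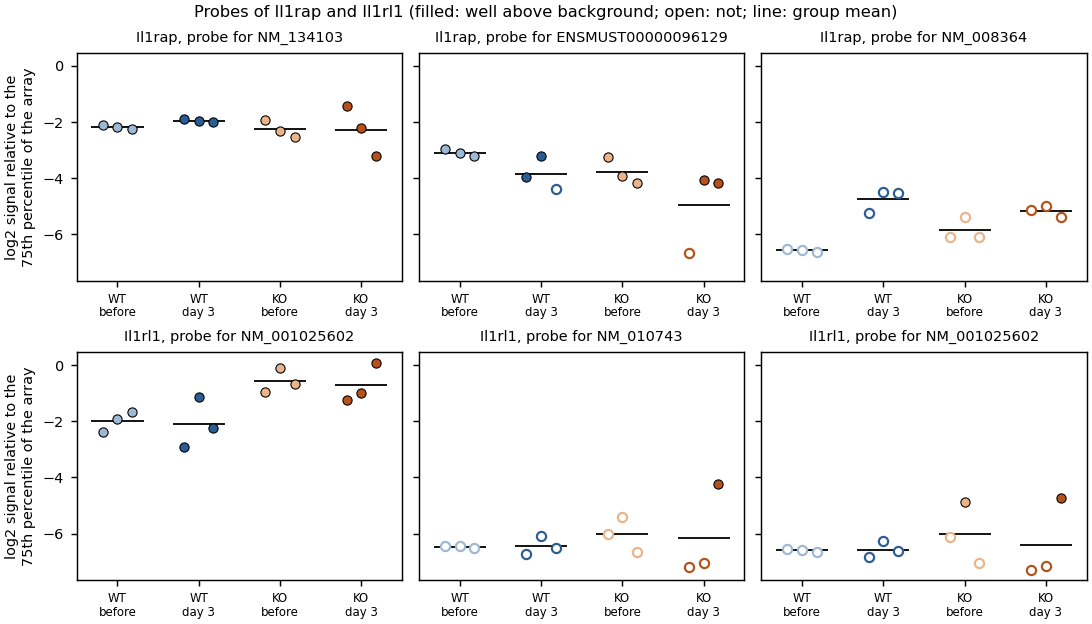
Log2 signal relative to the 75th percentile of the array (vertical axis) for the 3 probes of Il1rap (top) and of Il1rl1 (bottom) in the 4 groups, with each point an array, filled where well above background, and the line the group mean. Only the NM_134103 probe of Il1rap and the first NM_001025602 probe of Il1rl1 were well above background on all 12 arrays.

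The inflammasome members showed no difference that passed. Casp1, which encodes the enzyme that cuts pro-IL-1 beta and pro-IL-18, read 0.72, 0.71 and 0.83 in WT before challenge, 1.1, 1.2 and 0.64 in WT at day 3, 0.65, 1.21 and 1.44 in smSocs3-KO before challenge and 1.15, 1.47 and 1.18 in smSocs3-KO at day 3. Its differences lay between 0.16 and 0.34 in the 4 comparisons (SE 0.22), and the 95% intervals reached no further than -0.33 and 0.83. Nlrp3, the sensor, read -3.66, -4.13 and -3.96 in WT before challenge, -4.15, -4.98 and -4.05 in WT at day 3, -3.83, -4.35 and -4.24 in smSocs3-KO before challenge and -3.76, -5.08 and -4.04 in smSocs3-KO at day 3, with the values of -4.98 and -5.08 not well above background. Its differences lay between -0.48 and 0.10 (SE 0.35, adjusted p from 0.403 to 0.9999), within intervals from -1.25 to 0.87. The second Nlrp3 probe was not well above background on any array.

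Genes of the same pathway were described from lists chosen with earlier results of these data known. Of 7 other ligands and antagonists only Il18bp, the secreted IL-18 inhibitor, could be tested. Its responses were 0.75 in WT and 0.77 in smSocs3-KO (SE 0.28 for each, adjusted p = 0.126 and 0.142). Il1rn, the IL-1 receptor antagonist, was well above background on 1 array. Of 6 other receptors, 2 could be tested, Il18r1 and Sigirr. Il18r1, the IL-18 receptor chain that binds the ligand, read -1.62, -1.13 and -2.77 in WT before challenge, -1.59, -3.61 and -2.56 in WT at day 3, 1.57, 1.53 and 2.14 in smSocs3-KO before challenge, and 0.63, 0.77 and 0.25 in smSocs3-KO at day 3. Every smSocs3-KO array exceeded every WT array, and within slide 1 smSocs3-KO before replicate 1 (1.57) exceeded all 6 WT arrays. Separation upward between the genotypes was shown by 6.42% of all genes before challenge and by 7.33% at day 3. The Il18r1 difference was 3.14 at day 3 (SE 0.50, adjusted p = 0.0226) and 3.59 before challenge (SE 0.50, adjusted p = 0.0606). With the slide as a block the day 3 value was 2.87 (adjusted p = 0.244), and the call was kept in 9 of 12 omissions of an array.

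Of 20 other inflammasome genes, 16 could be tested. In the smSocs3-KO response, where 2.35% of all genes were called, 3 were called higher and none lower. The list median there was 0.55 against -0.10 over all genes. None passed in the other comparisons, where the medians were 0.07 in the WT response, 0.24 before challenge and 0.68 between genotypes at day 3. The 3 were Mefv, which encodes the sensor pyrin, with 3.37 (SE 0.76, adjusted p = 0.0477), the channel gene Panx1 with 2.24 (SE 0.50, adjusted p = 0.0454) and Naip2, which senses bacterial secretion proteins, with 1.74 (SE 0.40, adjusted p = 0.0488). Each of the 3 calls was kept in 3 of 12 omissions of an array. Panx1 also read 2.18 and 2.49 on WT day 3 replicates 1 and 3 against 0.12 on replicate 4 and -0.12 to -0.04 before challenge. Without WT day 3 replicate 4, 5 of the 16 rose in WT (Pycard, Mefv, Naip2, Naip6 and Panx1) and 6 in smSocs3-KO, while 16.1% and 8.56% of all genes passed in either direction in that fit.

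All 23 listed signalling proteins could be tested. The shares called over all genes were 2.35% in the smSocs3-KO response and 1.07% between genotypes at day 3. In the smSocs3-KO response Irak3, an inhibitory member of the kinase family downstream of the receptor, rose by 0.93 (SE 0.18, adjusted p = 0.0356) and the kinase gene Map3k8 by 1.14 (SE 0.23, adjusted p = 0.0391). Map3k8 was also higher in smSocs3-KO than in WT at day 3, by 1.15 (SE 0.23, adjusted p = 0.0451). Of 12 omissions of an array, 3 kept the call of Irak3, 4 that of Map3k8 in the response and 2 that of Map3k8 between genotypes. The other listed ones did not pass in any comparison, and the list medians lay between -0.02 and 0.06. None of these pathway calls in smSocs3-KO was kept with the slide as a block. That fit called 0.22% of all genes in the smSocs3-KO response and 0% between genotypes at day 3.

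Of 25 genes that IL-1 is known to induce, 20 could be tested, and each of them also responds to other signals. Over all genes, 4.63% were called in the WT response, 2.35% in the smSocs3-KO response and 1.07% between genotypes at day 3. In the WT response the cytokine gene Il6 and the matrix protease gene Mmp3 rose. Il6 was below background on the 3 WT arrays before challenge and read 2.46, 3.34 and -3.58 at day 3, at least 42.7-fold higher (adjusted p = 0.0362). Mmp3 read 1.67, 1.59 and 2.43 before challenge and 4.17, 4.45 and 3.51 at day 3, a difference of 2.15 (SE 0.35, adjusted p = 0.0304). Each of these calls was kept in 6 of 12 omissions of an array. All WT arrays lay on slide 1, so the slide as a block left both differences as they were. Both calls were kept in that fit (adjusted p = 0.0312 for Il6 and 0.0280 for Mmp3), where 10.1% of all genes passed. In a fit to slide 1 alone, where no gene passed, the values were the same and the adjusted p was 0.0820 for Il6 and 0.0802 for Mmp3. In smSocs3-KO, Mmp3 rose by 1.77 (SE 0.35, adjusted p = 0.0368) and Steap4, which encodes a metal reductase, by 3.24 (SE 0.56, adjusted p = 0.0235). The acute-phase genes Lcn2 (3.96, SE 0.70, adjusted p = 0.0296) and Saa3 (8.80, SE 1.63, adjusted p = 0.0340) and Steap4 (3.35, SE 0.56, adjusted p = 0.0248) were higher in smSocs3-KO than in WT at day 3. With the slide as a block these day 3 differences were 3.58 for Lcn2 (adjusted p = 0.266), 3.96 for Saa3 (0.437) and 1.31 for Steap4 (0.375), and Mmp3 and Steap4 no longer passed in the smSocs3-KO response (0.114 and 0.0579). Of 12 omissions of an array, the day 3 calls were kept in 6 for Lcn2, 3 for Saa3 and 8 for Steap4, and the response calls in 6 for Mmp3 and 8 for Steap4. The list medians were 0.89 in WT, 1.55 in smSocs3-KO, 0.24 before challenge and 0.62 between genotypes at day 3.

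**Figure D4:**
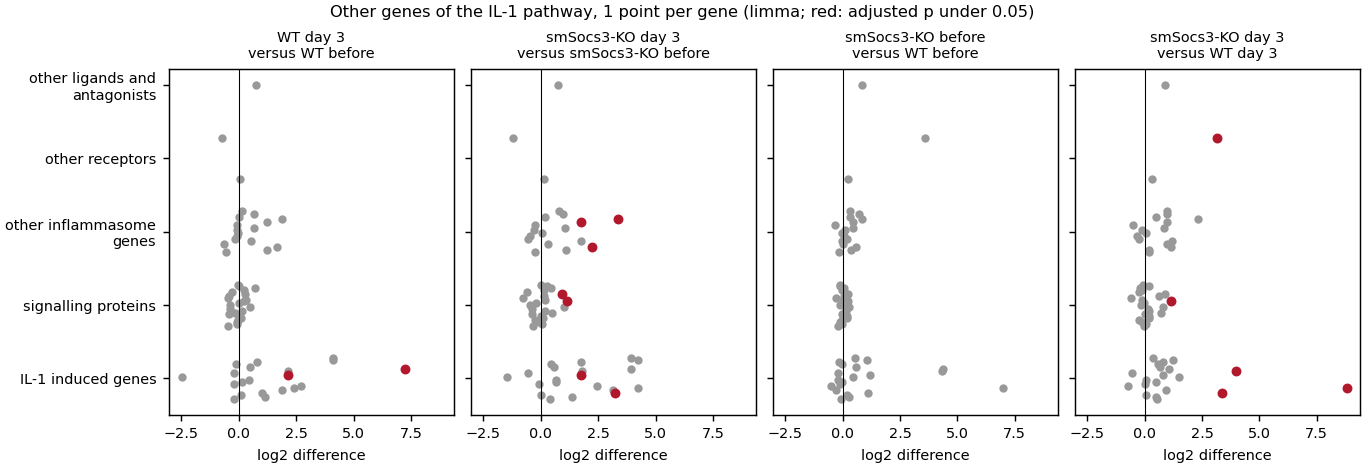
Log2 difference (horizontal axis) of each tested gene in the 5 pathway lists (vertical axis) in 4 comparisons, with each point a gene and red points those with an adjusted p under 0.05. Red points lie to the right of 0 in every panel that holds any, and the panel before challenge holds none.

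Markers of other cell types were read on the same arrays. Of 13 macrophage and monocyte genes tested, 5 rose in the smSocs3-KO response (Cd68, Cd14, C1qa, Mrc1 and Cd163, by 1.61 to 2.13), where 2.35% of all genes were called. None passed in the WT response, where 4.63% of all genes did. Each of the 5 calls was kept in 2 or 3 of 12 omissions of an array and none with the slide as a block (adjusted p from 0.0970 to 0.141). Between genotypes at day 3, where 1.07% of all genes were called, Cd163 alone passed, higher in smSocs3-KO by 1.76. That call was kept in 3 of 12 omissions and not with the slide as a block (2.24, adjusted p = 0.228). Cd68 read 1.34, 1.39 and 1.15 in WT before challenge, 3.79, 2.78 and 1.65 in WT at day 3, 0.99, 1.57 and 1.53 in smSocs3-KO before challenge and 3.58, 3.08 and 3.8 in smSocs3-KO at day 3. Thus WT day 3 replicate 4 was the lowest day 3 array for Cd68, as it was for Il33, Il1b and Il1r2. Without that array 10 of the 13 rose in WT and 11 in smSocs3-KO, where 16.1% and 8.56% of all genes passed in either direction. The summed level of the 13, on the linear scale relative to the 75th percentile, overlapped between all groups, at 181 to 224, 157 to 269, 141 to 311 and 194 to 224 in the same order. Such a sum follows the brightest probes. The median log2 difference of the 13 genes was 1.02 in the WT response, 1.61 in the smSocs3-KO response and 0.82 between genotypes at day 3.

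Of 12 neutrophil genes, 7 could be tested, and Retnlg, Cxcr2, Ngp, Ltf and Mmp8 had no probe that passed the filter. Ly6g rose in smSocs3-KO by 1.54 (SE 0.26, adjusted p = 0.0235) and Mpo in WT (adjusted p = 0.0446). Ly6g was 1.37 with the slide as a block (adjusted p = 0.0808) and kept its call in 9 of 12 omissions of an array. Mpo kept its call in 3 of 12. It also kept it with the slide as a block (adjusted p = 0.0394), where 10.1% of all genes passed in WT, but not within slide 1 (adjusted p = 0.0802). S100a8 read 3.11 on smSocs3-KO day 3 replicate 2 and 0.47 on replicate 5, against -1.96 on replicate 3 and -4.24 to -0.88 on all other arrays. The same replicate 2 had the highest Il1b and Il1r2, and replicate 3 the lowest of both in its group. WT day 3 replicate 4, where Il1b and Il1r2 were not well above background, had the highest S100a8 of the WT arrays (-0.88). The Csf3r probe alone made up 78.6% of the summed neutrophil level on smSocs3-KO day 3 replicate 2 and 95.4% to 99.5% on the other arrays, and without it the sums were 2.10 to 2.36, 2.63 to 4.99, 1.71 to 3.29 and 4.15 to 43.1 in the same group order.

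Mast cells, which are known to express Il1rl1, were represented as well. Of 7 tested, Kit rose by 1.4 (adjusted p = 0.0442) in smSocs3-KO, where 2.35% of all genes were called. Tpsab1 also passed there (3.51, adjusted p = 0.0442). It was well above background on no WT array and on 1 smSocs3-KO array before challenge. Tpsab1 thus entered the test only through smSocs3-KO at day 3, the group where it was high, so its call is not counted as support. Hdc, which makes histamine, was higher in smSocs3-KO than in WT at day 3 by 3.34 (adjusted p = 0.0273). With the slide as a block none of the 3 passed (Kit adjusted p = 0.147, Tpsab1 0.141, and Hdc 2.49 with 0.290), and 2, 3 and 8 of 12 omissions of an array kept the respective calls. Hdc read 0.39 to 2.40 on the 6 smSocs3-KO arrays and -3.03 to -1.05 on the 6 WT arrays, the same separation as Il18r1. Higher values without overlap were shown by 6.42% of all genes before challenge and by 7.33% at day 3. The summed mast cell level was 3.59 to 5.51 and 1.82 to 4.56 in WT, and 4.24 to 6.89 and 6.33 to 10.2 in smSocs3-KO. The summed level of 8 mesothelial genes, 3.14 to 22.7 on the WT arrays, was 37.5 to 78.0 on the smSocs3-KO arrays, both before challenge and at day 3. The 8 smooth muscle genes were present on every array, with sums of 2394 to 2669 before challenge and 1830 to 2354 at day 3 in WT. In smSocs3-KO the sums were 2108 to 3214 before challenge and 1488 to 1774 at day 3, the latter below all other arrays. Their median log2 difference was -0.3 in the WT response and -0.6 in the smSocs3-KO response, and none of the 8 passed in any comparison. Of 8 endothelial genes none passed in any comparison. Their median differences were 0.35 in the WT response, 0.38 in smSocs3-KO, -0.13 before challenge and -0.15 at day 3. Of 8 fibroblast genes only Dpt passed, at day 3 between genotypes (1.97), where 1.07% of all genes were called. It was 1.35 with the slide as a block (adjusted p = 0.289) and kept its call in 7 of 12 omissions. The fibroblast medians were 0.01, 0.41, 0.04 and 0.19 in the same order. The part of these cells in the results was not tested.

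**Figure D5:**
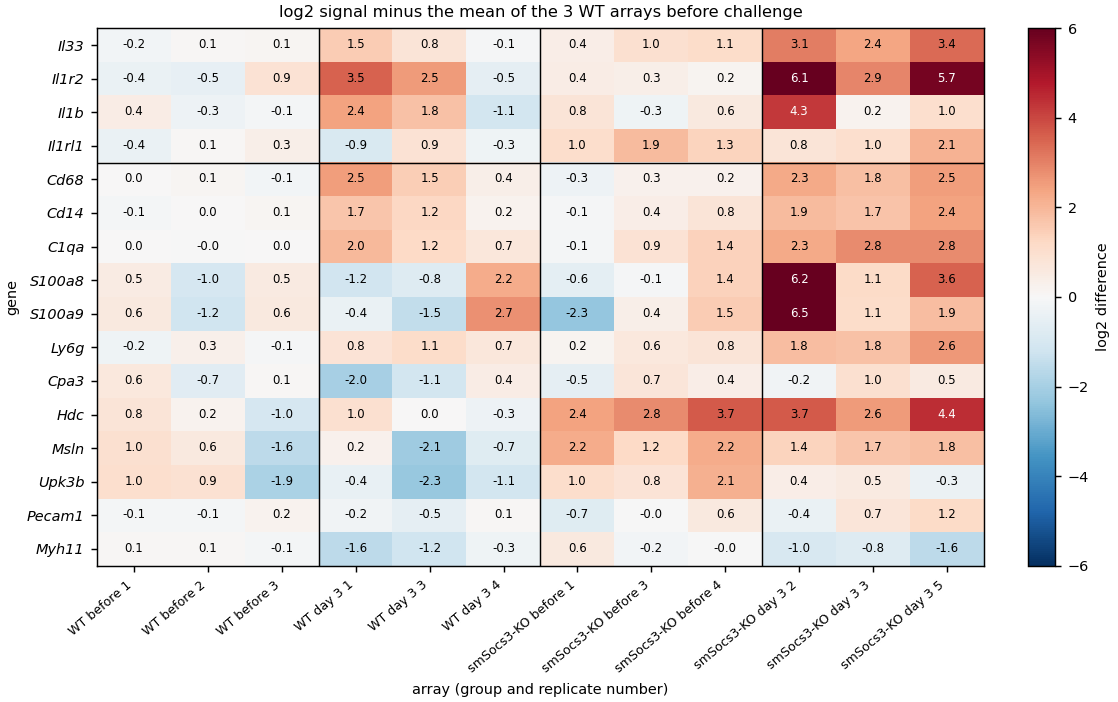
Log2 signal minus the mean of the 3 WT arrays before challenge (colour and printed values) for 4 members (top) and 12 cell type markers (below) on the 12 arrays. Il33, Il1r2, Il1b and Cd68 are lowest on replicate 4 among the WT day 3 arrays, and S100a8 and Il1b are highest on smSocs3-KO day 3 replicate 2.

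The genes whose pattern over the 12 arrays was most like that of Il33 were Fcgr4 (Pearson r = 0.982), Fpr2 (r = 0.976) and Slc7a7 (r = 0.973), of which Fcgr4 encodes an immunoglobulin receptor and Fpr2 a formyl peptide receptor of myeloid cells. For Il1b the nearest gene with a symbol was Gatm (r = 0.907), for Il1r1 Prpf31 (r = 0.953) and Wdr77 (r = 0.946), and for Nlrp3 Ccnt1 (r = 0.833). These likenesses rest on 12 arrays that share groups and slides, and are given as a description.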

How the data were processed

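The authors deposited Agilent Feature Extraction output for each array (spot analysis 10.7.1.1 per the file headers), with background-subtracted, linear signal intensity for 62976 spots, and a series table of the same intensity values after quantile normalization. Here log2 processed signal was taken relative to each array's 75th percentile over non-control spots without outlier marks. Spots of a probe were averaged. Of 55681 probes, 32291 were kept because they were well above background (13 background SDs) on all arrays of at least 1 group, and the brightest kept probe stood for each of 22769 genes. Group means over all 12 arrays were fitted with limma 3.58.1 in R 4.3.3, with Benjamini-Hochberg adjustment. Genes named with full statistics were members that passed, or that did not overlap with a log2 difference of at least 1, and the 3 genes with the highest correlation were taken as most alike. The members, lists and tests were chosen with earlier results of these data known. The precision is limited by 3 arrays a group. Probe positions name no genome build and are not printed. Replicate numbers were not used as pairs (11 same-number pairs, correlations -0.40 to 0.46, 4 above 0.1). The highest correlations were those between genotypes before challenge, 0.46 for number 1 and 0.33 for number 3, so pairing was not excluded.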

Additional observations from a re-analysis of the deposited data

How the results depend on the processing

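Of the results, the 2 members called in the smSocs3-KO response were Il33 and Il1r2, and the call of Il1r2 is not counted as support. They became 1 (Il33) with normexp background correction and the 75th percentile. The count was also 1 with no filter on dim probes, and with only probes well above background on all arrays (where Il1r2 was not tested). It was 0 with the slide as a block (0.22% of all genes called) and 0 within slide 2. The 1 member called between genotypes at day 3 became 0 with no filter and 0 with only the groups compared. It also became 0 with the slide as a block (0% of all genes called). Array weights raised the count from 0 to 2 in the WT response (38.2% of all genes called) and from 0 to 4 before challenge (Il18, Il33, Il1rl1 and Casp1, 33.5% of all genes). Leaving out 1 array at a time gave 0 to 2 members in the smSocs3-KO response, 0 to 1 at day 3, 0 to 2 in the WT response and 0 to 0 before challenge. With the replicate number as a block, 0 members were called in the smSocs3-KO response and 0 at day 3. Same-numbered arrays did not all deviate together. Shares over all genes are given in this section only for the slide block and the array weights. Under the other settings a lost or gained call is not set against such a share and says nothing particular to these members. The difference between the responses had 0 members called in all 25 alternatives. The named differences kept their sign in all alternatives: Il33 1.61 to 2.41 and Il1r2 1.73 to 5.62 in the smSocs3-KO response, Il33 1.55 to 2.60 at day 3 and Il1rl1 0.96 to 1.61 before challenge. The cause was not tested. Signal near background limits Il1a, Il1b, Il1r2 and Nlrp3.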
